A study of Mus musculus with 12 samples.

Results

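The pyruvate dehydrogenase complex and the enzymes that switch it were followed in mouse livers and liver tumors through 10 genes of 26301 in the count table. They encode the core subunits (Pdha1, Pdhb, Dlat and Pdhx), the 4 pyruvate dehydrogenase kinases (Pdk1 to Pdk4) and the phosphatases Pdp1 and Pdp2. Rows were chosen by Entrez identifier, so that Pdk1 here is the pyruvate dehydrogenase kinase (Entrez 228026) and not the signalling kinase Pdpk1, which has carried the same name. The genes were taken up because Pdk1 was lower in one kind of tumor than in control livers, so its differences between groups, and every value of that comparison, are given as a description with no test.

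RNA came from 12 adult mice, 4 per group. The controls were 4 livers labelled wild-type. The 4 tumors labelled DKO arose spontaneously in mice whose E2f7 and E2f8 were deleted by Alb-Cre, and the 4 labelled TKO in mice whose Rb1 was deleted by Alb-Cre as well. The control tissue was not tumor, so gene deletion and tumor state cannot be told apart in DKO or TKO against control. E2f7 and E2f8 encode the atypical E2F repressors of cell cycle genes and Rb1 the retinoblastoma protein. Alb-Cre is driven by the albumin promoter, which is active in hepatocytes, so that endothelial, immune and stroma cells of a tumor keep the genes. All mice were from an end-of-life study, and the time of day of harvest is not given in the sources used here. Polyadenylated RNA was sequenced on a SOLiD instrument. Each library held 9165812 to 16424973 counts, and values below are CPM (counts scaled to library size, with edgeR's TMM factors).

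The deleted genes were checked first. Rb1 was at 3.21 to 5.47 CPM in the 4 tumors labelled TKO and at 6.52 to 11.3 CPM in the other libraries, with no overlap. E2f7 had only 4 to 24 counts in a library, and E2f8 was higher in tumors (7.59 to 45.6 CPM labelled DKO, 12.3 to 52.2 CPM labelled TKO) than in controls (4.52 to 8.97 CPM). A count summed over a whole gene also takes reads from exons that were not deleted, so these counts do not check the labels of E2f7 and E2f8. Hepatocyte markers were present in all libraries, and none was at 0. The summed CPM of 12 such genes ran from 133700 to 192300 in controls and from 180900 to 450700 in tumors labelled DKO. In those labelled TKO it ran from 73620 to 331200, the lowest of them below every control.

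The complex sits in the mitochondrial matrix and turns pyruvate, the end product of glycolysis, into acetyl-CoA for the tricarboxylic acid cycle and for fat synthesis. The kinases put phosphate on the E1 alpha subunit and stop the reaction, and the phosphatases take it off and restart it. In the liver the balance follows feeding: fasting and fatty acids raise Pdk4 through PPAR and FOXO factors, low oxygen raises Pdk1 through HIF1, and Pdk2 is the widely expressed liver form. Transcript levels say nothing of the phosphate on the protein, which was not measured.

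Promoter sequences were read for Pdk1, whose level chose the genes, and Pdk4, the kinase with the highest log2 fold change in DKO against control, from RefSeq's GRCm38.p6 table, which matched 9 of the 10 genes with 11 promoters. Pdp1 was not matched. Each line runs 5′ to 3′ over the 250 bases before the start, and capitals mark the core of a hypoxia response element, ACGTG or GCGTG on either strand. The first is chr2:71872974-71873223 on the plus strand (the first of 2 entries for Pdk1), and the second chr6:5496279-5496528 on the minus strand.
Pdk1: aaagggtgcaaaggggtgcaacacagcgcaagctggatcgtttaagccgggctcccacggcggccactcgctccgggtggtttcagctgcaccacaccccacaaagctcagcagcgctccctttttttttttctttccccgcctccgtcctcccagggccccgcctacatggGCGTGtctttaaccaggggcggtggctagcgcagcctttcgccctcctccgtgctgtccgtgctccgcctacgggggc
Pdk4: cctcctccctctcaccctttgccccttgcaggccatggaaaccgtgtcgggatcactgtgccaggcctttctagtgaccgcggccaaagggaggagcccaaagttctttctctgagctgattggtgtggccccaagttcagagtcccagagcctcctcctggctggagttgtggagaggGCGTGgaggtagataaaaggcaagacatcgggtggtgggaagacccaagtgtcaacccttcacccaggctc
Each held 1 match, which began 78 bases before the start of Pdk1 and 71 bases before that of Pdk4. The other Pdk1 promoter held 0, and 8 of the 11 promoters held at least 1, with the most in Pdk3 (4). Such a core is common, present in 38.6% of all 32851 windows of this length, so that a match here is only a description. In 1 Pdk2 promoter and in that of Pdp2 the 2 matches were both strands of 1 E box (CACGTG, 6.02% of all windows). Letters of an E2F site (TTTCCCGC, TTTGGCGC, TTTGCCGC or TTTCGCGC, 1.86% of all windows), of a FOXO site (GTAAACA, 3.17%) or of a PPAR direct repeat (AGGTCA, any 1 base, AGGTCA, 0.0335%) were in none of the 11 promoters on either strand, which says only that these letters are not in these windows.

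Pdk1 was highest in control livers, lower in tumors labelled DKO and lowest in those labelled TKO. Pdk1 (mm9 chromosome 2, 71711281 to 71741915, plus strand) was at 87.1, 111, 103 and 119 CPM in the controls, at 74.8, 40.6, 61.3 and 81.4 CPM in the tumors labelled DKO and at 36.5, 24.9, 46.9 and 32.9 CPM in those labelled TKO. All 8 tumors lay below all 4 controls. Between the tumor groups only DKO 2 (40.6 CPM) and TKO 3 (46.9 CPM) crossed. The means were 105 ± 13.5, 64.5 ± 18.0 and 35.3 ± 9.15 CPM (SD, n = 4 each), with 350 to 1623 counts in each library. The log2 fold change was -1.57 (standard error 0.233) for TKO against control, the contrast that chose these genes, -0.70 (standard error 0.228) for DKO against control and -0.87 (standard error 0.230) for TKO against DKO. Across all alternatives these ran from -1.74 to -1.41, from -0.84 to -0.54 and from -1.04 to -0.72, each keeping its sign. Group means fell in this order for 13.5% of all 13882 genes tested, and among the 10 genes also for Pdhx, whose groups overlapped. In bulk tissue, fewer cells that carry Pdk1 and less Pdk1 RNA in each cell cannot be told apart.

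**Figure D1:**
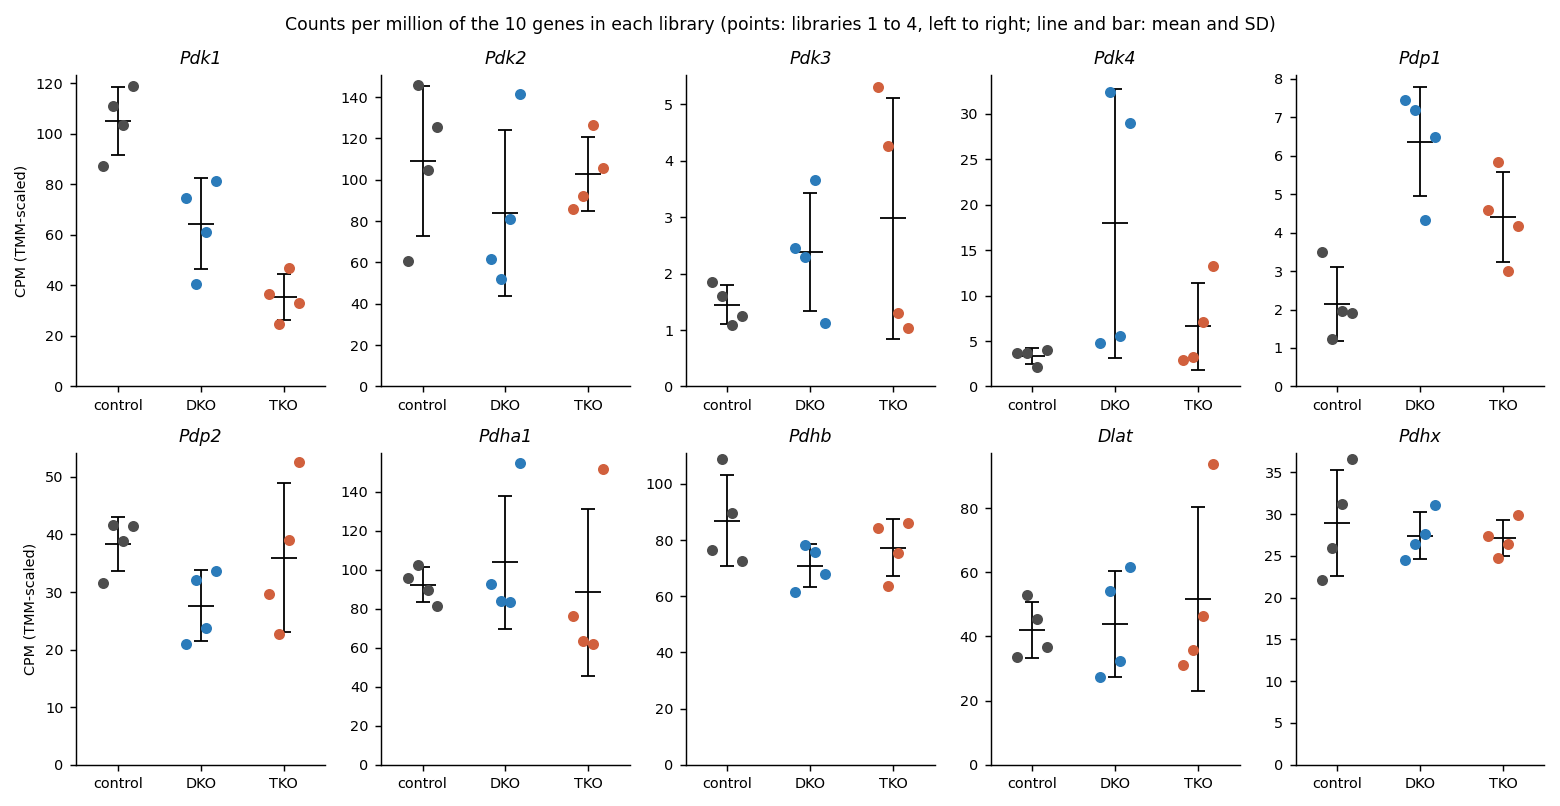
TMM-scaled CPM of the 10 genes (vertical axes start at 0) in 4 control livers, 4 tumors labelled DKO and 4 labelled TKO; points are libraries and the line with its bar is the mean with the SD. Pdk1 steps down from 105 to 64.5 and 35.3 CPM, Pdk4 is high in 2 of the tumors labelled DKO, Pdp1 is higher in all tumors labelled DKO than in any control, and Pdha1 stands high in DKO 4 and TKO 4.

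Among the other kinases none passed the test in either tumor comparison, though Pdk4 was higher in every tumor labelled DKO than in every control. Pdk4 (mm9 chromosome 6, 5433351 to 5446309, minus strand), the kinase of fasting, was at 3.63, 3.69, 2.10 and 4.03 CPM in the controls. It was at 4.83, 32.4, 5.50 and 29.0 CPM in the tumors labelled DKO and at 2.95, 3.27, 7.06 and 13.2 CPM in those labelled TKO. DKO 2 and DKO 4 stood far above the rest, TKO 4 came next, and DKO 1 and DKO 3 were just above the controls. For DKO against control the log2 fold change was 2.42 (standard error 0.674, adjusted p = 0.0709 by edgeR's quasi-likelihood test with Benjamini-Hochberg adjustment over all genes). DESeq2 gave an adjusted p of 0.00465, and edgeR without DKO 3 gave 0.0460. The adjusted p ran to 0.222 over the alternatives. For TKO against DKO it was -1.44 (standard error 0.640, adjusted p = 0.554), and for TKO against control 0.98 (standard error 0.664, description).

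Neither Pdk2 nor Pdk3 separated the groups. Pdk2 (mm9 chromosome 11, 94887572 to 94902668, minus strand), the form most abundant per length of transcript in all 12 libraries, was at 60.7, 146, 105 and 125 CPM in the controls. It was at 61.7, 51.8, 80.9 and 142 CPM in the tumors labelled DKO and at 86.0, 92.3, 127 and 106 CPM in those labelled TKO, so that the 3 groups overlapped. Its log2 fold change was -0.38 (standard error 0.320, adjusted p = 0.504) for DKO against control and 0.29 (standard error 0.319, adjusted p = 0.805) for TKO against DKO, and both turned sign, to 0.02 and -0.11, without DKO 1 and DKO 2. Pdk3 (mm9 chromosome X, 91009946 to 91077540, minus strand) was low, with 13 to 88 counts in a library. The controls held 1.08 to 1.85 CPM of Pdk3, the tumors labelled DKO 1.12 to 3.67 CPM, and those labelled TKO 5.31, 4.26, 1.30 and 1.04 CPM. TKO 1 and TKO 2 were the highest of all libraries and TKO 4 the lowest. The log2 fold change of Pdk3 was 0.73 (standard error 0.525, adjusted p = 0.429) for DKO against control and 0.33 (standard error 0.505, adjusted p = 0.866) for TKO against DKO. For TKO against control it was 1.05 (standard error 0.524, description). Group means of Pdk3 rose in the order control, DKO and TKO (1.45, 2.38 and 2.98 CPM), as did those of Dlat and of 16.4% of all genes tested.

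Per length, Pdk1 and Pdk2 made up nearly all kinase transcript in the controls. The Pdk1 part was smaller in every tumor labelled TKO, while DKO 1 lay within the control range of 23.0 to 34.9%. CPM were divided by the length of each gene's exons in kb for this purpose, and the shares carry no test since Pdk1 chose the genes. In the controls Pdk1 made up 28.2 ± 4.92% of the 4 kinases and Pdk2 68.5 ± 6.21% (SD, n = 4). The Pdk1 share was 30.6, 16.4, 21.6 and 16.4% in DKO 1 to DKO 4, with a mean of 21.3 ± 6.69%, and 11.3 ± 2.01% in the tumors labelled TKO. In the latter no library passed 13.5%, below the lowest of the other 8 libraries at 16.4%. Pdk2 made up 81.0 ± 2.39% there, at 78.1 to 83.4%, above all other libraries, whose highest share was 74.3%. Pdk4 made up 1.26 to 3.22% in the controls, yet 29.1% in DKO 2, 12.9% in DKO 4 and 8.99% in TKO 4. The summed level of the 4 kinases was 49.5 ± 13.1, 40.9 ± 15.5 and 40.04 ± 6.56 CPM per kb in controls, DKO and TKO, with overlapping ranges.

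**Figure D2:**
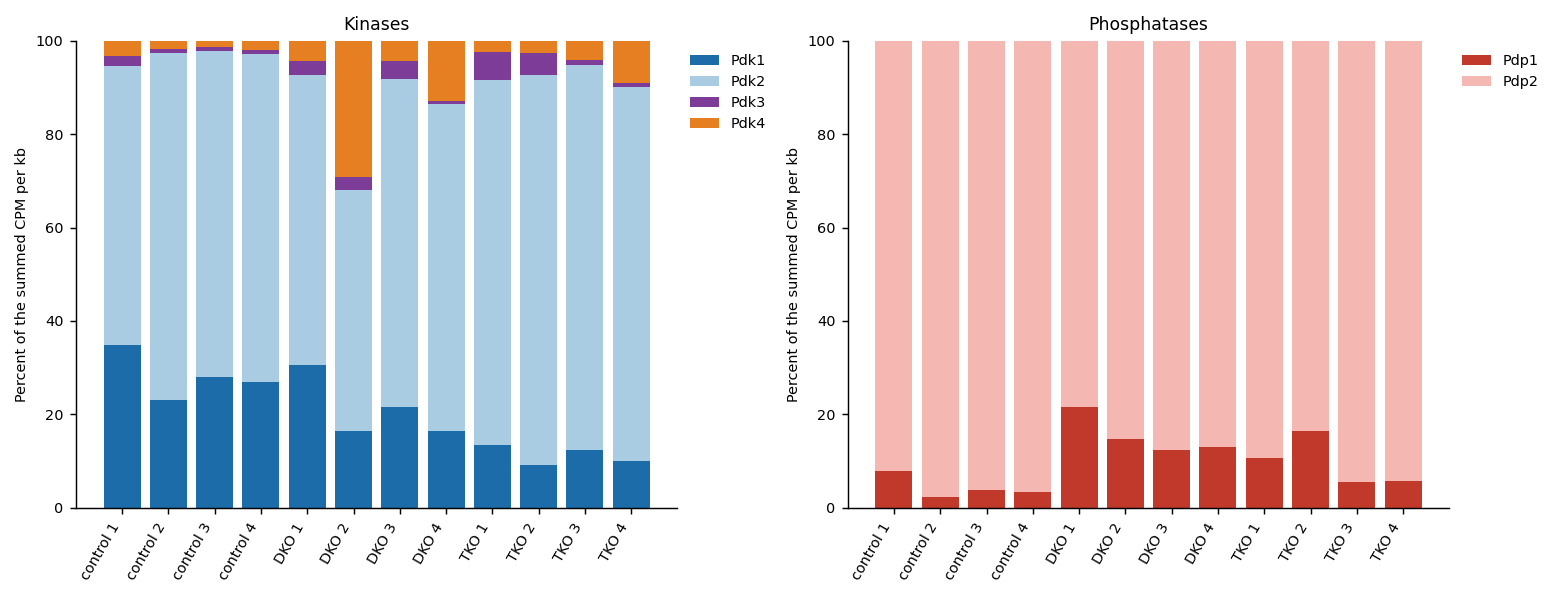
Percent of the summed CPM per kb taken by each kinase (left) and each phosphatase (right) in each of the 12 libraries, as stacked bars from 0 to 100. Pdk1 takes 23.0 to 34.9% of kinase transcript in control livers and 9.14 to 13.5% in tumors labelled TKO, Pdk4 is wide in DKO 2, and Pdp1 takes more in tumors labelled DKO than in controls.

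Pdp1 was the 1 gene of the 9 tested that passed in DKO against control (11.1% of them, beside 2.42% of all genes tested and 1.41% called higher). Pdp1 (mm9 chromosome 4, 11885331 to 11893599, minus strand) encodes the calcium-stimulated phosphatase that reactivates the complex. It was at 3.49, 1.23, 1.97 and 1.90 CPM in the controls, at 7.44, 7.20, 4.32 and 6.49 CPM in the tumors labelled DKO and at 4.58, 5.83, 2.99 and 4.18 CPM in those labelled TKO. Every tumor labelled DKO was above every control, and of those labelled TKO only TKO 3 fell within the controls, below control 1. The means were 2.15 ± 0.953, 6.36 ± 1.42 and 4.39 ± 1.17 CPM (SD, n = 4 each), from 10 to 110 counts in a library. The log2 fold change for DKO against control was 1.54 (standard error 0.319, adjusted p = 0.0425, edgeR's quasi-likelihood test), 2.92-fold. For TKO against DKO it was -0.53 (standard error 0.306, adjusted p = 0.619), and for TKO against control 1.02 (standard error 0.319, description). The call was close to its threshold: leaving out one library at a time gave log2 fold changes of 1.37 to 1.88 and adjusted p values of 0.0261 to 0.134. It was lost without control 2, control 3, control 4, DKO 1, DKO 2, DKO 4 or TKO 1 (adjusted p = 0.134, 0.128, 0.0697, 0.0969, 0.0982, 0.0669 and 0.0535).

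Pdp2, the insulin-responsive phosphatase and by far the more abundant one in liver, did not rise with Pdp1. Pdp2 (mm9 chromosome 8, 107115368 to 107120736, plus strand) was at 31.5, 41.7, 38.8 and 41.4 CPM in the controls, at 21.0, 32.1, 23.7 and 33.7 CPM in the tumors labelled DKO and at 29.7, 22.7, 39.0 and 52.6 CPM in those labelled TKO. The groups overlapped through control 1 and the tumors DKO 2 and DKO 4. The log2 fold change was -0.47 (standard error 0.240, adjusted p = 0.254) for DKO against control and 0.38 (standard error 0.240, adjusted p = 0.647) for TKO against DKO. Per length, Pdp1 made up 4.33 ± 2.46% of phosphatase transcript in the controls, 15.4 ± 4.20% in tumors labelled DKO and 9.65 ± 5.16% in those labelled TKO (SD, n = 4 each). The ratio of summed kinases to summed phosphatases was 4.26 ± 0.769, 4.37 ± 1.18 and 3.71 ± 0.805 in the same order, and its ranges overlapped.

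None of the 4 core subunits passed the test in either comparison. Pdhb (mm9 chromosome 14, 8998505 to 9005506, minus strand), the E1 beta subunit, was at 72.6 to 109 CPM in the controls, 61.4 to 78.4 CPM in tumors labelled DKO and 63.7 to 85.9 CPM in those labelled TKO. Its log2 fold change was -0.29 (standard error 0.156, adjusted p = 0.271) for DKO against control. Pdhx (mm9 chromosome 2, 102861232 to 102913670, minus strand), which anchors the E3 subunit, varied least of the 10 genes in tumors, at 24.5 to 31.1 CPM labelled DKO and 24.8 to 29.8 CPM labelled TKO, beside 22.1 to 36.6 CPM in controls. Its log2 fold change was -0.08 (standard error 0.153, adjusted p = 0.787) in DKO against control and -0.01 (standard error 0.153, adjusted p = 0.982) in TKO against DKO.

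Pdha1 and Dlat each had single high tumors. Pdha1 (mm9 chromosome X, 156560141 to 156576345, minus strand), the E1 alpha subunit that carries the regulatory phosphates, was at 96.0, 102, 89.7 and 81.6 CPM in the controls. It was at 92.9, 84.2, 83.3 and 154 CPM in the tumors labelled DKO and at 76.0, 63.7, 61.8 and 152 CPM in those labelled TKO. DKO 4 and TKO 4 were above all other libraries, while TKO 1, TKO 2 and TKO 3 were below all controls. The log2 fold change of Pdha1 was 0.17 (standard error 0.290, adjusted p = 0.760) for DKO against control and -0.23 (standard error 0.290, adjusted p = 0.831) for TKO against DKO. Without DKO 4 and TKO 4 these were -0.09 (adjusted p = 0.702) and -0.38 (adjusted p = 0.395). Exons of Map3k15 overlap those of Pdha1 on the other strand. Map3k15 had at most 13 counts in a library beside 806 to 2620 for Pdha1, and the part of this overlap in the Pdha1 counts was not tested. Dlat (mm9 chromosome 9, 50442738 to 50467885, minus strand), the E2 acetyltransferase, was at 33.6, 52.9, 45.4 and 36.7 CPM in the controls. It was at 27.4, 54.1, 32.3 and 61.8 CPM in the tumors labelled DKO and at 31.2, 35.8, 46.3 and 93.7 CPM in those labelled TKO, again highest in TKO 4 and DKO 4. Its log2 fold change was 0.06 (standard error 0.351, adjusted p = 0.936) for DKO against control and 0.24 (standard error 0.35, adjusted p = 0.861) for TKO against DKO.

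**Figure D3:**
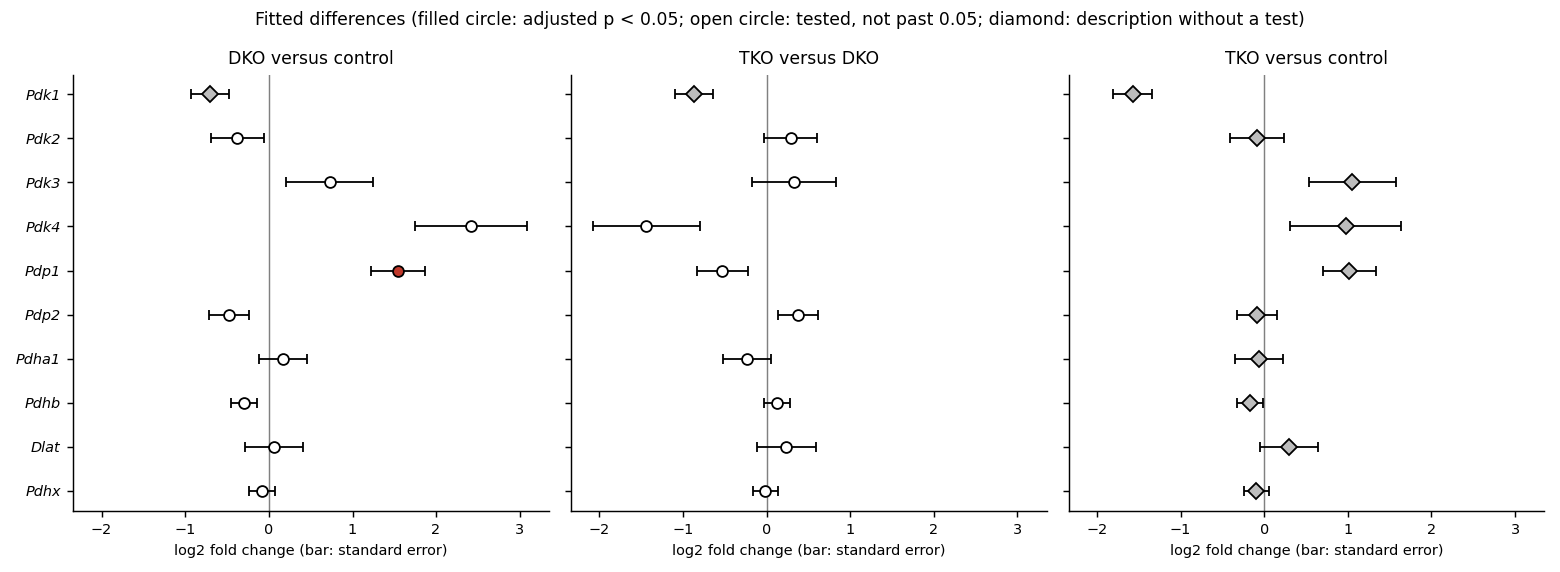
Log2 fold change (horizontal axis, bars are standard errors) of the 10 genes in the 3 comparisons; filled circles passed an adjusted p of 0.05, open circles were tested and did not, and diamonds are descriptions without a test. Pdp1 in DKO against control is the one filled circle, and Pdk1 lies below 0 in all 3 panels at -0.70, -0.87 and -1.57.

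TKO against DKO compares tumors with and without the added Rb1 deletion. The paper reports shorter lives and a shorter tumor latency in triple than in double knockout mice. Age at collection and tumor stage therefore cannot be told apart from the Rb1 deletion here. In TKO against DKO 0 of the 9 tested genes passed by edgeR and 0 by DESeq2. The comparison called 0 of all 13882 genes tested (0%) by edgeR, 1250 (9.004%) had an unadjusted p below 0.05, and DESeq2 called 56 (0.398%). Among the 9 tested genes Pdk4 alone was below 0.05 without adjustment (0.0433, edgeR). Of all genes tested 8.87% had every tumor labelled DKO above every control, as Pdk4 and Pdp1 did, and 7.30% had every one below, as Pdk1 did. Groups did not overlap for 4.87% of genes in TKO against DKO and for none of the 10. Every tumor labelled TKO was below every control for 3.29% of genes, among them Pdk1, which chose the set.

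The tumors with the most Pdk4 also carried the most transcript of a pair of beta-catenin target genes, which were chosen after their values were seen. Axin2, a feedback inhibitor of Wnt signalling, was at 45.8 CPM in DKO 2, 41.3 CPM in DKO 4 and 75.0 CPM in TKO 4, and at no more than 9.97 CPM in any other library. Glul, the glutamine synthetase of pericentral hepatocytes, was at 3138, 7472 and 10331 CPM in these 3 tumors and at 213 to 781 CPM elsewhere. Pdk4 was at 32.4, 29.0 and 13.2 CPM in them and at no more than 7.06 CPM elsewhere. Dlat at 54.1, 61.8 and 93.7 CPM was likewise above all other libraries in the same 3, but control 2 came close at 52.9 CPM. The cycle enzymes Cs (198, 214 and 310 CPM, beside 99.99 to 180 CPM) and Idh3a (81.6, 103 and 134 CPM, beside 26.5 to 51.3 CPM) were also highest there. Pdk1 did not follow this pattern, at 40.6, 81.4 and 32.9 CPM. In DKO 2, Pdha1 (84.2 CPM) and Pdhb (78.4 CPM) lay within the controls, and Pdk2 (51.8 CPM) was the lowest of all libraries. Cs and Idh3a were picked from 17 genes of the cycle, and others went the other way. Suclg2, Sdhb and Fh1 were below every control in every tumor. Of the 17, 14 had a log2 fold change below 0 in DKO against control. DKO 4 and TKO 4 had the least Cps1 (810 and 453 CPM) and Ass1 (216 and 179 CPM), urea cycle enzymes of periportal hepatocytes that are among the hepatocyte markers. TKO 4 was also below every control for Alb (37568 CPM, beside 62569 CPM or more) and Serpina1c (1946 CPM, beside 7974 CPM or more). The same held in TKO 4 for Apoa1, Tf, Fga, Fgb, Ahsg and Hnf4a, while its Ttr (3104 CPM) lay within the controls. DKO 4 was below every control for Serpina1c (2240 CPM) but not for Alb (108819 CPM). The part of any of these in the values of Pdk4, Pdha1 or Dlat was not tested.

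The genes whose pattern was most like that of Pdk1 were sought next. Likeness was the root mean square difference in log2 CPM, centred on each gene's mean, over the 12 libraries and 8380 genes with a mean log2 CPM of at least 3. The 5 nearest were Mpv17l (0.27), Ttpa (0.33), Aass (0.33), Aldh1l1 (0.36) and Slco1a1 (0.39), against a median of 0.77 over all genes. Mpv17l, a peroxisome-associated protein, was at 30.0 ± 2.94, 19.4 ± 5.51 and 11.8 ± 3.84 CPM in controls, DKO and TKO (SD, n = 4 each). Slco1a1, an organic anion uptake transporter of hepatocytes, was at 1043 ± 143, 538 ± 135 and 432 ± 118 CPM. Of the 6 other complex genes that reached this level, Pdhx was the nearest to Pdk1 (0.69), at rank 1875. A gene with no change over the libraries would be at 0.72, so that Pdhx was hardly nearer than that. Pdk3, Pdk4 and Pdp1 did not reach the level. For Pdk4 the nearest were Ptpn9 (0.71), Gulo (0.74), Net1 (0.76), Tbx3 (0.79) and Rnf43 (0.80), against a median of 1.23, so that none was close. Dlat (0.99) was the nearest to Pdk4 of the 7 complex genes at this level, at rank 171, beside 1.20 for a gene with no change.

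**Figure D4:**
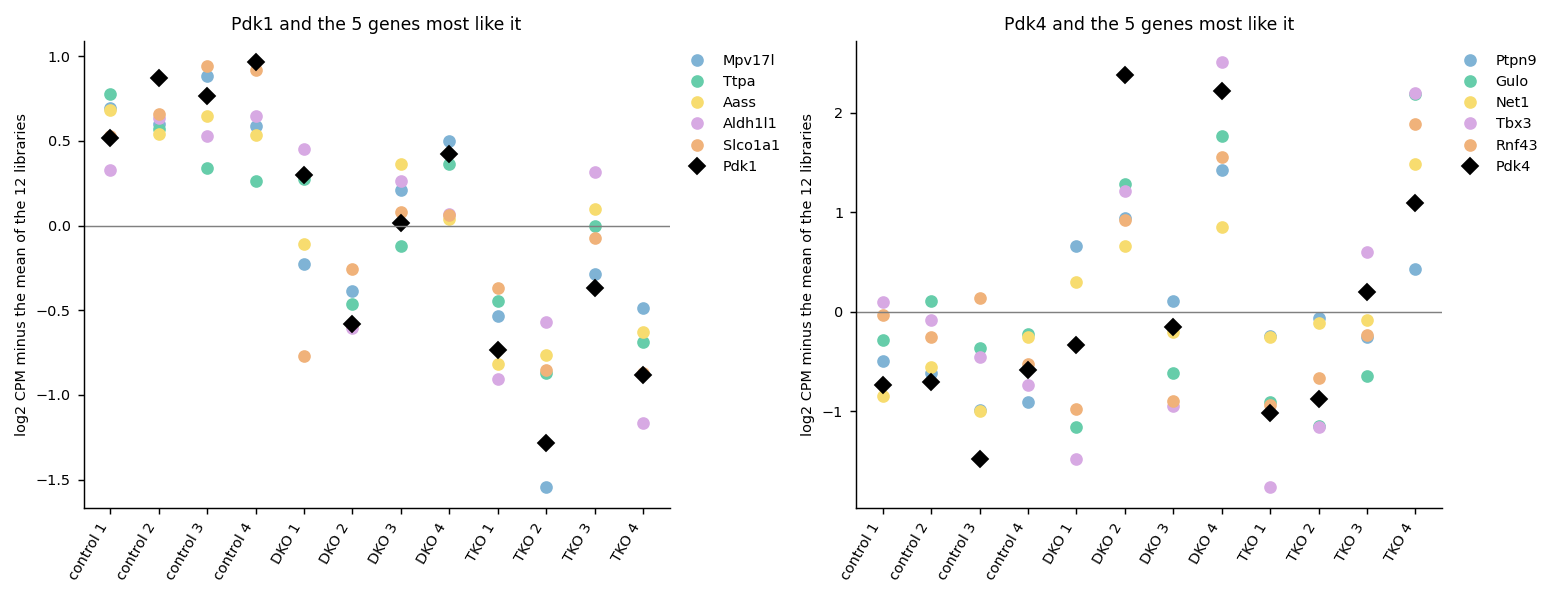
Log2 CPM minus the mean over the 12 libraries (vertical axis) for Pdk1 and Pdk4 (black diamonds) and the 5 genes most like each (coloured points), by library. The genes near Pdk1 lie above 0 in all 4 controls and mostly below in tumors labelled TKO. Those near Pdk4 lie above 0 in DKO 2, DKO 4 and TKO 4, but Ptpn9 is higher in DKO 1 (0.66) than in TKO 4 (0.43).

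Around the complex, 9 lists held 124 genes, of which 123 passed the filter on low counts. In DKO against control 3 of the 123 passed (2.44%, beside 2.42% of all genes tested) by edgeR, and 29 by DESeq2, which called 10.4% of all its genes. An unadjusted p under 0.05 was reached by 51 of them (41.5%) beside 24.0% of all genes, but the lists were chosen with results of these data known. In TKO against DKO 0 passed by either tool. Each list is given by its counts, and its median log2 fold change is beside the median of all genes, which was 0.02 in DKO against control and 0.01 in TKO against DKO.

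Of 9 partners of the complex, which supply its cofactors, its E3 subunit and its pyruvate, 0 passed in either comparison. Their median log2 fold change was -0.27 in DKO against control, with 8 of 9 below 0, and -0.10 in TKO against DKO. Pdpr, the regulatory subunit of the phosphatase, had the lowest value in DKO against control (-0.56, adjusted p = 0.248) and the highest in TKO against DKO (0.37, adjusted p = 0.710). Mpc1, a subunit of the mitochondrial pyruvate carrier, had the lowest in TKO against DKO (-0.27, adjusted p = 0.652). Mpc1 was at 73.1 to 124 CPM in controls and at 47.9 to 70.6 CPM in tumors labelled TKO, with no overlap. Of 9 genes of related dehydrogenases 0 passed, with a median of -0.15 in DKO against control. Ppm1k, the phosphatase of the branched-chain ketoacid dehydrogenase, was lowest there (-1.29, adjusted p = 0.0684), at 73.7 to 90.0 CPM in controls and 28.2 to 36.2 CPM in tumors labelled DKO. It was the highest of this list in TKO against DKO (0.57, adjusted p = 0.641), through TKO 3 at 98.7 CPM beside 25.7 to 49.0 CPM in the other tumors labelled TKO, and at 0.0038 without it. Dbt, the E2 subunit of that dehydrogenase, went from highest (0.14, adjusted p = 0.701) to lowest (-0.31, adjusted p = 0.660).

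Of 13 genes for other fates of pyruvate 1 rose in DKO against control and 0 fell, with a median of -0.35. Pck2, the mitochondrial phosphoenolpyruvate carboxykinase, rose by 1.43 on the log2 scale (standard error 0.326, adjusted p = 0.0486), with 3.32 to 4.82 CPM in controls and 8.40 to 13.1 CPM in tumors labelled DKO. The call was lost without control 1, control 2, control 3, control 4, DKO 1, DKO 2, DKO 4 or TKO 1 (adjusted p 0.0577 to 0.144). Pck1, its cytosolic counterpart in gluconeogenesis, had the lowest value (-1.43, adjusted p = 0.278) there and in TKO against DKO (-0.22, adjusted p = 0.946), where Ldhd, the D-lactate dehydrogenase, had the highest (1.03, adjusted p = 0.566). TKO 4 held 316 CPM of Ldhd, beside 47.9 to 148 CPM in the other tumors labelled TKO, and without it the log2 fold change was 0.26. Of 17 genes of the tricarboxylic acid cycle 0 passed, with 14 of 17 below 0 and a median of -0.42 in DKO against control and 0.13 in TKO against DKO. Sdhb, a subunit of succinate dehydrogenase, was lowest (-0.83, adjusted p = 0.0634) and Idh2, the NADP-dependent mitochondrial isocitrate dehydrogenase, highest (0.70, adjusted p = 0.120) in DKO against control. In TKO against DKO Suclg1 was highest (0.52, adjusted p = 0.554) and Sucla2 lowest (-0.25, adjusted p = 0.673), both subunits of succinyl-CoA ligase.

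Among 12 regulators of Pdk4, 1 fell in DKO against control and 0 rose, with a median of -0.32. Ppargc1b, the coactivator PGC-1 beta, fell by 2.00 on the log2 scale (standard error 0.405, adjusted p = 0.0425), with 6.38 to 17.3 CPM in controls and 2.42 to 4.14 CPM in tumors labelled DKO. Leaving out the same libraries except control 1 ended this call (adjusted p 0.0535 to 0.134). In TKO against DKO its log2 fold change was 1.52 (adjusted p = 0.407), the highest of the list, and Ppard had the lowest (-1.26, adjusted p = 0.450). Pparg was highest in DKO against control (1.40, adjusted p = 0.220), with 41.7 CPM in DKO 4 and at most 9.94 CPM in the other tumors labelled DKO, and its log2 fold change was 0.37 without DKO 4. Of 16 PPAR alpha targets 0 passed in either comparison, with 12 of 16 below 0 and a median of -0.36 in DKO against control, and a median of 0.62 in TKO against DKO. Cyp4a14 (-1.63, adjusted p = 0.165) and the fasting hormone Fgf21 (1.36, adjusted p = 0.232) were the extremes in DKO against control (Cyp4a14 was at -0.88 without control 2 and at -2.55 without DKO 4), and Angptl4 (0.99, adjusted p = 0.504) and Cyp4a10 (-0.94, adjusted p = 0.771) in TKO against DKO.

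Of the 20 hypoxia-responsive genes, of which 19 passed the filter, 0 passed the test. Their median was 0.19 in DKO against control and -0.19 in TKO against DKO, beside -0.70 and -0.87 for Pdk1. The part of low oxygen in the values of Pdk1 was not tested. Ankrd37 had the highest value (1.57, adjusted p = 0.0612) and Bnip3, a mitophagy receptor, the lowest (-0.38, adjusted p = 0.193) in DKO against control, and Pfkfb4 (0.17, adjusted p = 0.905) and Ankrd37 (-1.34, adjusted p = 0.449) were the extremes in TKO against DKO. Of 14 genes of glucocorticoid response and of fasting and feeding 1 rose in DKO against control. Igfbp1, a secreted IGF-binding protein of the fasted liver, rose by 3.51 on the log2 scale (standard error 0.739, adjusted p = 0.0425), with 11.6 to 40.4 CPM in controls and 133 to 505 CPM in tumors labelled DKO. This call was lost without the same 8 libraries as that of Pck2 (adjusted p 0.0511 to 0.134). Like Pdk4 it was highest in DKO 4 and DKO 2, and its log2 fold change in TKO against DKO, the lowest of the list, was -1.95 (adjusted p = 0.482). Per1 was lowest in DKO against control (-0.80, adjusted p = 0.231) and G6pc, the glucose-6-phosphatase, highest in TKO against DKO (1.28, adjusted p = 0.585, and 0.30 without TKO 3, which held 486 CPM beside 81.7 to 111 CPM in the other tumors labelled TKO).

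**Figure D5:**
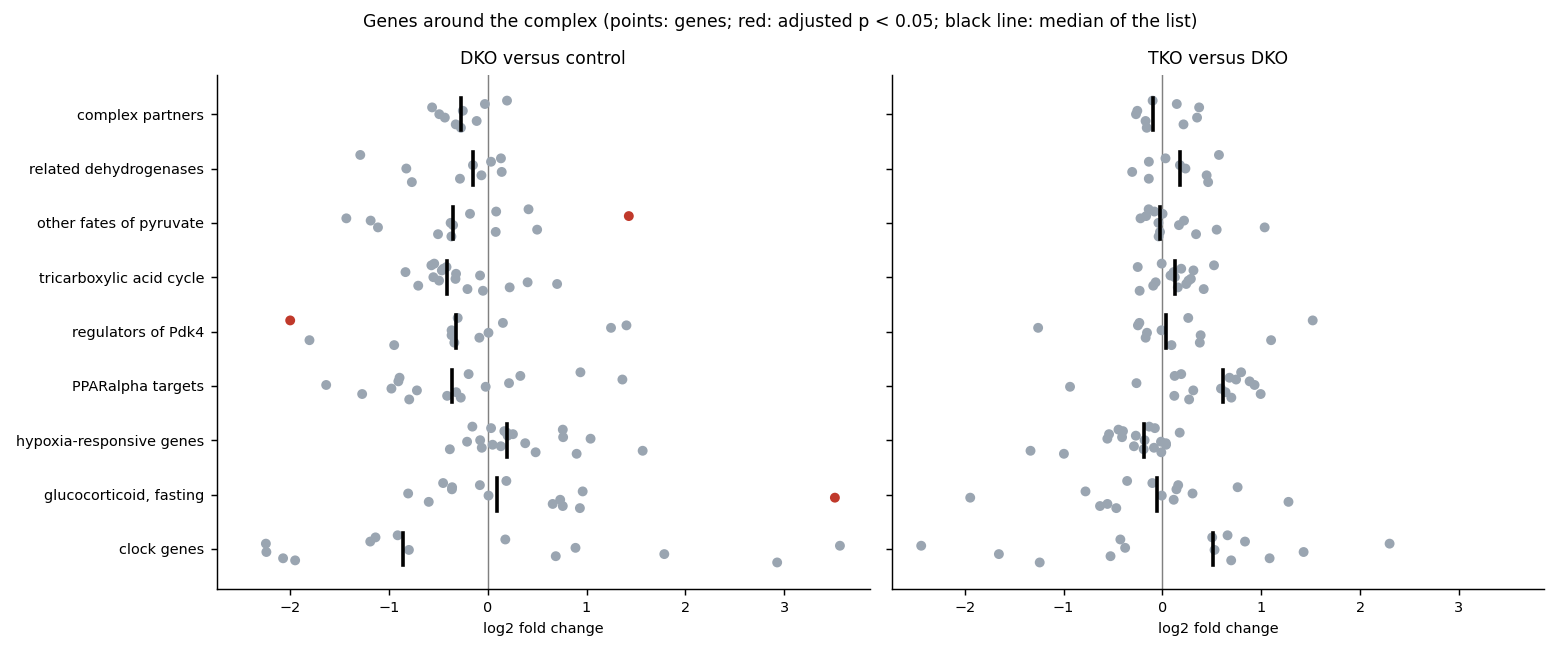
Log2 fold change (horizontal axis) of each tested gene in the 9 lists around the complex, in DKO against control (left) and TKO against DKO (right); points are genes, red ones passed an adjusted p of 0.05, and black lines are list medians. The 3 red points are Pck2, Ppargc1b and Igfbp1, and the clock genes spread widest.

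Clock genes differed between libraries of the same group. Of 14 such genes 0 passed in either comparison, with a median of -0.85 in DKO against control and 0.52 in TKO against DKO. Npas2 was highest (3.56, adjusted p = 0.0538) and Nr1d1, a clock repressor, lowest (-2.24, adjusted p = 0.0924) in DKO against control, and they changed places in TKO against DKO (-2.44 and 2.30, adjusted p = 0.450 each). Npas2 was at 16.1 and 8.94 CPM in DKO 1 and DKO 2 and at no more than 1.99 CPM elsewhere, and Dbp, a clock output, was lowest in the same libraries at 4.98 and 4.90 CPM. Without DKO 1 and DKO 2 the log2 fold change of Pdk4 in DKO against control was 2.36 (adjusted p = 0.222), that of Pdp1 1.31 (adjusted p = 0.235) and that of Pdk1 -0.57 (description), from a smaller group.

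Other cell types and cell division were measured with the same libraries. Of 8 proliferation genes 1 rose in DKO against control: Mki67 (log2 difference 2.89, adjusted p = 0.0425), a call lost without the same 8 libraries as that of Pck2 (adjusted p 0.0517 to 0.134). The summed CPM of these 8 ran from 9.34 to 22.9 in controls, 26.5 to 117 in the DKO tumors and 14.9 to 71.3 in the TKO tumors, so that it was higher with Pdp1 in all tumors labelled DKO. Summed macrophage markers (7 genes) ran from 152 to 409, 60.1 to 351 and 110 to 425 CPM, endothelial markers (7 genes) from 128 to 204, 161 to 239 and 175 to 332 CPM, stellate and fibroblast markers (8 genes) from 103 to 283, 118 to 306 and 140 to 272 CPM, and lymphocyte markers (7 genes) from 10.7 to 33.8, 8.84 to 28.9 and 11.7 to 19.3 CPM. Cholangiocyte markers (6 genes) ran from 28.7 to 50.0, 24.8 to 109 and 31.4 to 55.2 CPM. All of these overlapped between groups, and no gene of these lists was at 0 in a whole group. Markers of fat, muscle and pancreas (8 genes) summed to 11.1 to 12.8 CPM in controls and 13.9 to 20.7 CPM in tumors, a sum made up mostly of Acta1 (9.42 to 12.2 and 12.2 to 18.6 CPM, which overlapped), with 1 gene at 0 in all controls and 2 in all tumors labelled TKO. Their part in the values of the 10 genes was not tested.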

How the data were processed

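Livers and tumors of 12 mice were profiled by RNA sequencing (4 wild-type livers, 4 tumors labelled DKO, 4 labelled TKO). The authors used BWA to map reads to mm9 and FeatureCounts to sum them by gene, per the study's methods and the submitters' processing notes. The deposited values are raw counts for 26301 Entrez identifiers, with no normalization. Strandedness, tool versions and how multi-mapping reads were treated are not given in the sources used here, so overlapping genes and near-identical copies are uncertain. Columns were matched to samples by their labels, and 0 columns were left unused. Symbols (24191 identifiers, 99.4% of counts) came from GRCm38.p6 gene names, and coordinates and exon lengths from the GENCODE vM1 annotation of mm9.

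Counts were scaled by TMM, filtered with filterByExpr (13882 genes kept, all 10 members among them) and compared with edgeR 4.0.16 (R 4.3.3), whose quasi-likelihood test was fitted to all 12 libraries with a mean per group. P values were adjusted by Benjamini-Hochberg over all genes at 0.05, the level of the study's methods, which name DESeq2. DESeq2 1.42.0 and limma 3.58.1 (voom with quality weights) served as alternatives. Log2 CPM for likeness used a prior count of 2. The SD over 4 mice per group covers both mice and counting error.

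The members and the lists were chosen with earlier results of these data known. Named were the 10 members, the deleted genes, the 5 genes most like Pdk1 and Pdk4, and from each of 9 lists each gene that passed and the highest and lowest log2 fold change in both tested comparisons, except that 1 such gene is not reported here. Axin2, Glul, Cs, Idh3a, Cps1, Ass1, Dbp, Mki67 and Map3k15 were named after their values were seen. Alternatives were DESeq2, its size factors, total counts, no filter, at least 10 counts in every library, a block for the replicate number, a fit to only the 8 libraries compared, a covariate from sex-linked genes, voom, leaving out each library, exon length of the longest transcript, a prior count of 0.5 and, added after the data were seen, leaving out DKO 4 with TKO 4 or DKO 1 with DKO 2. In 12 of 12 libraries Xist was below 4 Y-linked genes. No library duplicated another of its group within sampling noise. Labels do not state the cage, date or batch of a mouse, so none could be checked.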

Additional observations from a re-analysis of the deposited data

Results flagged for a closer look

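A library far from the others of its group was looked for in the 10 genes and 3 groups, 30 sets of 4 libraries in all, by the gap of the highest or lowest library to its nearest neighbour as a part of the group's range. Chance picks out about 1 in 20 sets. The gap passed Dixon's critical value for 4 samples in 2 sets, both in Pdha1. DKO 4 held 154.5 CPM of Pdha1, with the next tumor labelled DKO at 92.9 CPM, and a gap of 0.865 of the range. TKO 4 held 151.8 CPM, with the next tumor labelled TKO at 76.04 CPM, and a gap of 0.842. No explanation was tested.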

How the results depend on the processing

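Pdp1 was the call of DKO against control in the main fit (1 of 9) and in 12 of 23 alternatives. The count was 2 by DESeq2 (with Pdk4), 0 with total counts as scaling, 0 with the sex-linked covariate, 0 without DKO 4 and TKO 4, 0 without DKO 1 and DKO 2, and 0 to 2 with one library left out. For the list genes the count of 3 became 29 by DESeq2, 8 with the 8 libraries alone, 0 with the sex-linked covariate, 30 by voom, 0 without DKO 1 and DKO 2, and 0 to 7 with one library left out. In TKO against DKO 0 members and 0 list genes were called under every alternative. Since Xist was below 4 Y-linked genes in all 12 libraries, the sex-linked covariate does not separate the sexes. It varies with 1 to 6 counts of Xist and with Y-linked genes such as Kdm5d. The means of Kdm5d were 13.5, 5.51 and 8.73 CPM in controls, DKO and TKO. The cause of these moves was not tested.

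The replicate numbers repeat between groups, but the libraries come from different mice, and the deviations of same-numbered libraries correlated at -0.17 to 0.37 (over 0.1 in 5 of 12 pairs), so the numbers do not pair the samples. With the replicate block 1 member and 7 list genes were called in DKO against control.

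Some differences turned sign, none of them past the threshold. In DKO against control these were Pdha1 (-0.093 without DKO 4 and TKO 4, -0.089 to 0.26 with one library left out), Dlat (-0.034 with the replicate block, -0.12 by voom, -0.16 without DKO 4 and TKO 4, -0.15 to 0.22), Pdhx (0.014 without DKO 1 and DKO 2, -0.19 to 0.053), Pdk2 (0.023 without DKO 1 and DKO 2) and Dbt (-0.023 without DKO 1 and DKO 2). In TKO against DKO they were Pdha1 (-0.63 to 0.025), Dlat (-0.020 without DKO 4 and TKO 4, -0.22 to 0.45), Pdhx (0.084 with total counts, 0.0028 by voom, -0.063 to 0.052), Pdk2 (-0.11 without DKO 1 and DKO 2), Pdk3 (-0.11 to 0.62), Cyp4a10 (0.50 without DKO 4 and TKO 4, -1.28 to 0.85), Npas2 (0.30 without DKO 1 and DKO 2) and Pck1 (0.13 with the replicate block, 0.24 by voom, -0.66 to 0.72).

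Total counts moved the median of all genes to 0.11 in TKO against DKO and 0.17 in TKO against control. Shares of kinases moved by less than 1 SD with the longest transcript, and 5 of 5 genes most like Pdk1 and 4 of 5 most like Pdk4 remained with a prior count of 0.5. At 10 to 110 counts of Pdp1 and 13 to 88 of Pdk3, depth limits what can be read from these genes.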
